A study of Mus musculus with 12 samples.

Results

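The 57 genes described here encode heterogeneous nuclear ribonucleoproteins (hnRNPs) and other regulators of pre-mRNA splicing in a mouse palate mesenchyme cell line. They were taken by symbol from a table of 51490 genes, and the gene named Qk in the chosen list stands in that table as Qki. RNA was sequenced from immortalized mouse embryonic palatal mesenchyme (iMEPM) cells, a male line lacking Cdkn2a (Cdkn2a-/-) in every group, which carried either a scramble shRNA (scramble) or an shRNA against Srsf3 (shSrsf3). Both shRNAs came in by lentivirus, followed by puromycin selection and sorting for GFP, so that each shRNA is represented by a single cell line and its effect cannot be told apart from other differences between the lines. Serum-starved cells were left unstimulated (-PDGF-AA) or received PDGF-AA at 10 ng/mL for 1 hr (+PDGF-AA), with 3 biological replicates in each of the 4 groups. The comparisons ask how splicing regulator RNAs differ with less Srsf3, and whether the ligand of the PDGF receptor alpha moves them within the hour.

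Splicing regulators bind short motifs in exons and introns and help or hinder recognition of the nearby splice sites. SR proteins such as Srsf3 mostly favour exon inclusion, whereas many hnRNPs, among them the polypyrimidine tract-binding (PTB) proteins, often repress it, and the RBFOX, MBNL and CELF families act according to where they bind. Kinases of the SRPK and CLK families phosphorylate the SR proteins, and the heterodimer of U2af1 and U2af2 reads the 3' end of the intron. Many of these genes have closely related paralogs with overlapping activity, and several control the splicing of their own transcripts, which a gene-level count does not show. All values below are gene-level RNA abundances, not protein amounts or splicing ratios, and in a bulk culture fewer cells of a type cannot be told apart from less RNA per cell.

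Levels are given as CPM, the count scaled to 1e6 counts of the library after TMM adjustment of library sizes. Total counts ran from 30958966 to 76123359 per sample, the members took 1.36% to 1.47% of them, and mitochondrial genes took 2.29% to 3.44%. Srsf3 (chr17:29251321-29262347, GRCm39), the targeted gene, was measured at 207, 199 and 212 CPM in scramble and at 162, 164 and 161 CPM in shSrsf3 without the ligand, and at 221, 215 and 231 against 164, 161 and 169.6 CPM with it. Every shSrsf3 sample lay below every scramble sample, with log2 fold changes of -0.34 ± 0.0379 (SE; adjusted p = 7.95e-06, edgeR's quasi-likelihood test) and -0.43 ± 0.038 (adjusted p = 9.54e-07). The study also reported lower Srsf3 protein in the shSrsf3 line by western blot, and these RNA values do not measure the size of that fall. The mesenchyme label fitted its markers in part: the 10 palate mesenchyme markers summed to between 31626.6 and 37168.2 CPM, mostly from Col1a1, Col1a2 and Vim, but Osr2 and Msx1, both transcription factors of the palate, stayed at or under 5.91 and 1.81 CPM. The sum was lower in every shSrsf3 sample than in every scramble sample, but its genes differed. Without the ligand 6 were called lower, among them Col1a2 (-0.37) and Pdgfra (-0.53), the gene of the receptor for this ligand. Vim was called higher (0.25), and Col1a1 (-0.08), Twist1 (0.03) and Pdgfrb (0.00) were not called. With the ligand Pdgfra differed by -0.36. Markers of other cell types were low but also differed between the lines. Without the ligand, endothelial markers summed to 30.5 to 33.3 CPM in scramble and 22.1 to 22.6 in shSrsf3, nearly all of it Tek, and neuronal markers to 26.4 to 27.6 and 17.6 to 18.8 CPM, nearly all of it Tubb3. Epithelial markers summed to 4.78 to 6.14 and 3.26 to 3.54 CPM, leukocyte markers to 2.02 to 2.34 and 1.55 to 2.31 CPM and muscle markers to 0.13 to 0.207 and 0.243 to 0.44 CPM. In both knockdown comparisons Tek, Tubb3 and Cdh1 were called lower and Cdh5, Kdr and Des higher, with Adgre1, Snap25, Elavl4 and Myod1 at 0 in all 12 samples. The part of these differences in the results below was not tested.

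The methods list a mapping rate for every library, and 3 libraries lay below the other 9. All 3 are scramble libraries, namely replicates 1 and 2 without PDGF-AA and replicate 2 with it. The summed level of the 57 members was 14912, 14705.7 and 13706.1 CPM in scramble without the ligand, against 13514.5, 13690.6 and 13704.4 CPM in shSrsf3. Replicate 3 of the unstimulated scramble cells thus sat beside the knockdown samples, while its partners of lower mapping rate sat above all of them. With the ligand the sums were 14127.7, 14583.9 and 14430.2 CPM in scramble against 13585.9, 13850.7 and 14060.6 CPM in shSrsf3, so that scramble replicates 1 and 3, which are not among the libraries of lower mapping rate, also lay above every knockdown sample. In 40 of the 57 members replicate 3 was the lowest sample of unstimulated scramble, which was not counted over all genes. Because the lower rate occurred in scramble libraries alone, it cannot be told apart from the shRNA within those libraries. Member results that rest on them are given with all 12 libraries and with the 9 others, where unstimulated scramble is represented by 1 sample assumed to vary like the rest. The cell type markers and the other lists of splicing genes are given with all 12 libraries alone, and their dependence on these libraries was not tested.

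All 57 members passed the filter on low counts, and all were expressed. Levels compared between genes are given as CPM per kb of the longest coding transcript, averaged over the 12 samples. Hnrnpa1, a core packaging protein of nascent RNA and a splicing repressor, stood highest at 359 CPM per kb, ahead of the poly(C)-binding protein gene Pcbp1 at 155, Nono at 146, Hnrnpk at 138, Hnrnph1 at 126 and Ptbp1 at 121. In the remaining role groups the highest members were Hnrnpu at 102 CPM per kb, Sf1 (the branch point-binding protein) at 86.5, Rbm39 at 78.0, Mbnl1 at 75.3, Clk1 at 55.0 and Tia1 at 12.6. Mbnl3 was the lowest member by far at 0.406 CPM per kb, below Hnrnpr at 5.58 and Hnrnph3 at 5.81. With the union of all exons as the length, Hnrnpa1 (241 CPM per kb) and Pcbp1 (142) were still the top pair and Mbnl3 (0.276) the lowest, but Hnrnph1 dropped to 55.2 and Mbnl1 to 21.9, so the middle of this order depends on the length chosen. The level of Hnrnpa1, at 365 ± 8.15 CPM per kb in unstimulated scramble and 352 ± 11.5 in unstimulated shSrsf3 (SD, n = 3), differed by less than the test could call (adjusted p = 0.22, edgeR). Up to 48.5% of the 31-base stretches in Hnrnpa3 transcripts, 31.6% in Hnrnpa1 and 30.8% in Rbm10 also occur in transcripts of other genes, so their counts are less certain than those of the Mbnl genes, which share under 1%.

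**Figure D1:**
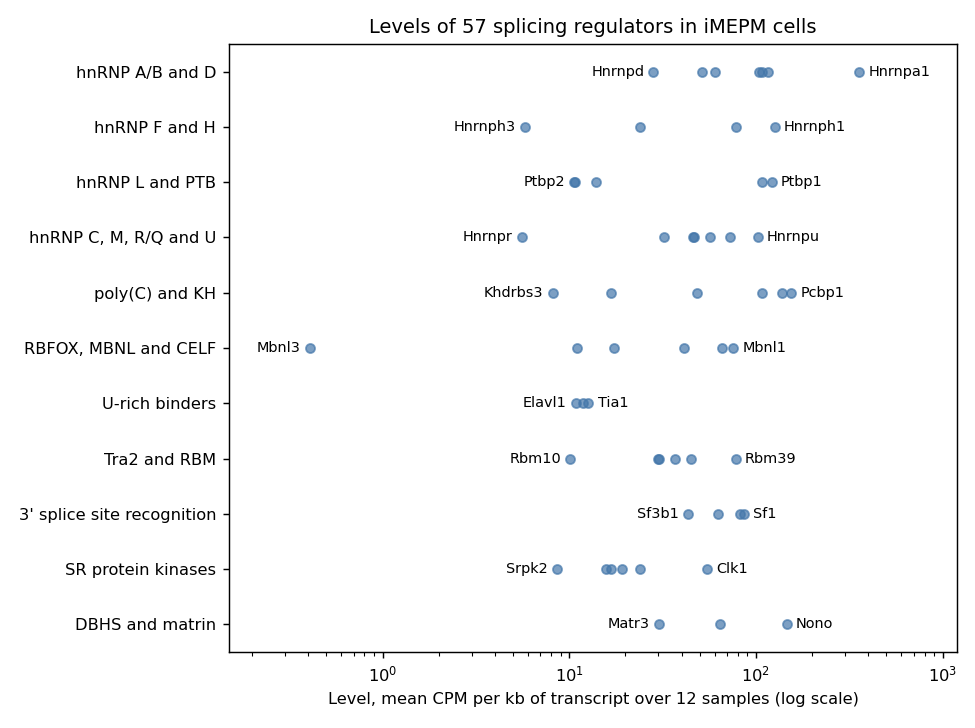
Mean level of each of the 57 members over 12 samples, in CPM per kb of the longest coding transcript on a log axis, by role group, with the highest and lowest member of each group named. Levels run from 0.406 CPM per kb for Mbnl3 to 359 for Hnrnpa1.

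Without PDGF-AA, knockdown left the splicing regulators within a narrow range. Log2 fold changes of the 57 members ran from -0.33 (Mbnl1) to 0.87 (Mbnl3), and the median was -0.11 against -0.02 over all 15037 genes tested. A member is called here when its adjusted p does not exceed 0.05. By that rule 29 of 57 members passed (50.9%), 6 higher and 23 lower in shSrsf3, beside 45.9% of all genes tested (22.2% higher and 23.7% lower) and 52.3% of genes tested at a minimum count of 50. The share called is therefore near the background, and no member reached a 2-fold change, which 5.75% of all genes did. At a minimum count of 50, 249 genes were called at least 2-fold higher and 242 lower, of 12528. The median absolute log2 fold change was 0.124 among members and 0.203 among all genes. These sets are not matched for level, since 41 of the 57 members averaged over 100 CPM and counting error weighs most on low genes. All 3 knockdown samples were above all 3 scramble samples for 10 members and below them for 22, where 26.2% and 27.1% of all genes showed such separation. With the 9 libraries, where unstimulated scramble is replicate 3 alone, the median log2 fold change was -0.02 among members and -0.0009 over all genes. The members' median thus lay closer to that of all genes than with 12 libraries. Of the 29 called members 28 kept their sign, Hnrnpu being at 0.00, and of all 57 members 45 did. Whether the removed libraries or replicate 3 are the unusual ones was not tested. Leaving out only replicate 1 or only replicate 2 of unstimulated scramble gave 18 and 19 called members, and leaving out replicate 3 gave 38. Over all genes, these fits called 2992 higher and 3088 lower of 15600, 2928 and 2986 of 15600, and 3584 and 3618 of 15017.

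With PDGF-AA, 20 of 57 members were called (35.1%), 5 higher and 15 lower, beside 41% of all genes tested (20.3% higher and 20.7% lower) and 47.1% at a minimum count of 50. The median log2 fold change was -0.07 against -0.01 over all genes, and the median absolute value was 0.0895 against 0.188, again without matching for level. Samples of the groups did not overlap for 8 members higher and 22 lower, beside 25.5% and 27.1% of all genes, and again no member was changed 2-fold (5.42% of all genes). The 9 libraries drop only scramble replicate 2 from this comparison, so they could move it less than the comparison without the ligand. There the median log2 fold change was -0.05 among members and -0.004 over all genes, and all 20 called members kept their sign. Leaving out replicate 1 of shSrsf3 with the ligand lowered the count of called members to 12. That fit called 2677 higher and 2568 lower of 15610 genes.

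**Figure D2:**
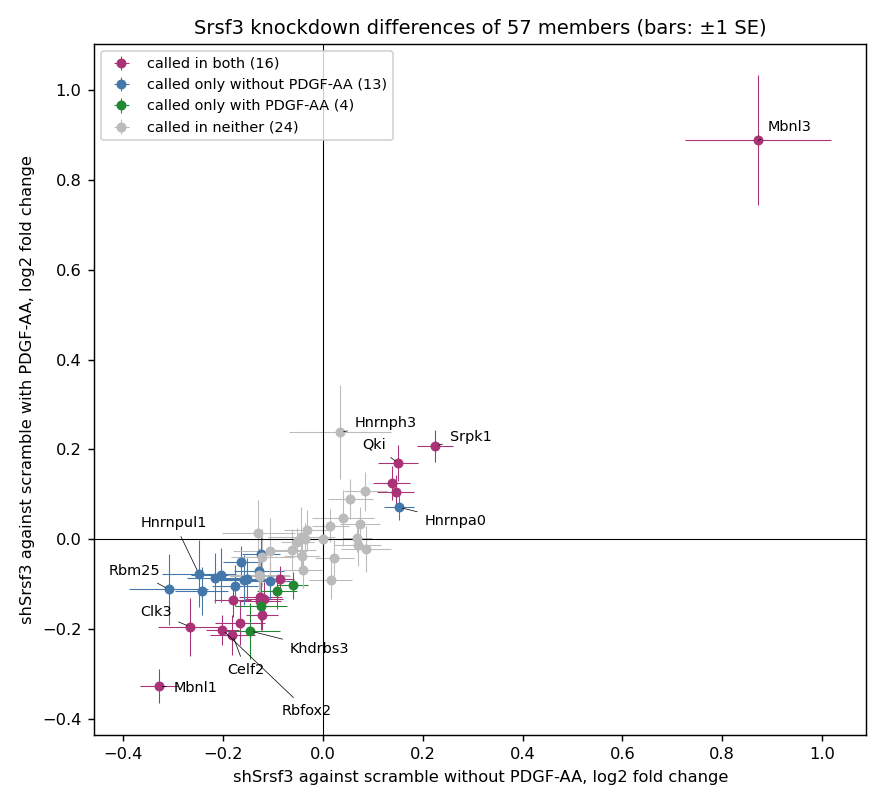
Log2 fold change of shSrsf3 against scramble for the 57 members without PDGF-AA (horizontal) and with PDGF-AA (vertical), with bars of 1 SE, coloured by the condition in which the member was called. The 16 members called in both have the same sign on the axes, Mbnl3 stands alone at 0.87 and 0.89, and Mbnl1 is lowest in both at -0.33.

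The 2 knockdown comparisons use different samples. Called lower in both were 11 members: Mbnl1, Clk3, Rbfox2, Celf2, Rbm10, Ptbp3, Tia1, Hnrnpll, Ptbp1, Mbnl2 and Hnrnpk. Called higher in both were 5: Mbnl3, Srpk1, Qki, Pcbp2 and Celf1. None was called in opposite directions, 13 were called without the ligand alone, 4 with it alone and 24 in neither, and 48 of 57 had the same sign. Of all genes tested 45.9% and 41% were called in these comparisons, but their overlap and shared signs were not counted. The counts in both conditions therefore cannot be read as particular to the members. A call in one condition and not the other is no difference between the conditions, which the interaction test below addresses. In each of 22 other fits (another tool, scaling, filter or library set), 9 members were called without PDGF-AA (Mbnl1, Rbfox2, Rbm10 and Clk1 lower, Mbnl3, Srpk1, Hnrnpa0, Qki and Celf1 higher), and 7 with it (Mbnl1, Rbfox2, Celf2 and Ptbp1 lower, Mbnl3, Srpk1 and Qki higher). The share of all genes called in every fit was not counted, so these counts cannot be read as particular to the members either.

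The RBFOX, MBNL and CELF members held the most extreme values in both directions. All 6 were called in both conditions, 4 lower and 2 higher, beside 45.9% and 41% of all genes tested. Counts by role group, here and below, are small and the groups were chosen with earlier results of these data known. MBNL proteins drive many adult splicing patterns of muscle and other tissues, and CELF proteins often oppose them on the same exons. Mbnl1 (chr3:60380102-60537183, GRCm39) stood at 514, 501 and 482 CPM in scramble and at 383, 409.8 and 398 CPM in shSrsf3 without the ligand. With it the values were 472, 504 and 498 against 393, 386 and 396 CPM. No knockdown sample reached the lowest scramble sample, and the level fell by 20.4% and by 20.3%, with log2 fold changes of -0.33 ± 0.038 (adjusted p = 1.12e-05) and -0.33 ± 0.0381 (adjusted p = 1.28e-05, edgeR).

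Mbnl3 (chrX:50202383-50295478, GRCm39), the least abundant paralog, went the other way. It stood at 1.87, 2.67 and 2.57 CPM in scramble and at 4.00, 4.45 and 4.72 CPM in shSrsf3 without the ligand, and at 2.86, 2.29 and 3.08 against 5.45, 5.27 and 4.51 CPM with it. The groups did not overlap, and the log2 fold changes were 0.87 ± 0.146 (adjusted p = 0.000291) and 0.89 ± 0.145 (adjusted p = 0.000247, edgeR), a rise of 83.1% and 85.0% resting on 72 to 309 counts per sample. Per kb of transcript Mbnl3 still reached only 0.566 ± 0.0558 CPM in shSrsf3 with the ligand (SD, n = 3), where Mbnl1 measured 66.3 ± 0.848 and Mbnl2 63.0 ± 1.71, so the paralogs that fell supplied nearly all of the family's RNA in every group. Mbnl2, at 345, 341 and 319 CPM in unstimulated scramble and 305, 315 and 306 in unstimulated shSrsf3, differed by -0.12 ± 0.0378 on the log2 scale (adjusted p = 0.0206) and with the ligand by -0.13 ± 0.0378 (adjusted p = 0.0115, edgeR). Its call without the ligand was lost in the 9 libraries (-0.05, adjusted p = 0.398), whereas Mbnl1 (-0.28 and -0.31) and Mbnl3 (0.76 and 0.77) were called in both conditions there.

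Because Mbnl1 and Mbnl3 moved in opposite directions, their RefSeq promoters are shown (GRCm38.p6, 250 bases before to 50 after each annotated start, 5′ to 3′ on the gene's strand). Capitals mark matches on either strand to the GC box, with the letters GGGCGG, to the element read by the factor NF-Y, with the letters CCAAT, or to the core promoter element read by the protein TBP, with the letters TATAAA. Mbnl1 has an upstream start (chr3:60472580-60472879, plus strand) and a downstream one (chr3:60500929-60501228, plus strand), and Mbnl3 has a start at chrX:51205941-51206240 on the minus strand.
Mbnl1 upstream start: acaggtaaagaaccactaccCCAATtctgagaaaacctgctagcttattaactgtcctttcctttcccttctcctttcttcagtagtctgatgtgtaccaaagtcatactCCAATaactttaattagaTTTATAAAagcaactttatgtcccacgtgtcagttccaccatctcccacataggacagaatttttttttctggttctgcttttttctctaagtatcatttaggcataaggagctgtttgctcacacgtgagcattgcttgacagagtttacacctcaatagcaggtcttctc
Mbnl1 downstream start: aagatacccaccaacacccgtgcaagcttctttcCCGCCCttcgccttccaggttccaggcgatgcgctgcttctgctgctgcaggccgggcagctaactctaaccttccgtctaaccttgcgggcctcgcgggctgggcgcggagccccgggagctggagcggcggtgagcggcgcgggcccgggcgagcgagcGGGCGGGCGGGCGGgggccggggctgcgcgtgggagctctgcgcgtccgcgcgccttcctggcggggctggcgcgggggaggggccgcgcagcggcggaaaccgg
Mbnl3 start: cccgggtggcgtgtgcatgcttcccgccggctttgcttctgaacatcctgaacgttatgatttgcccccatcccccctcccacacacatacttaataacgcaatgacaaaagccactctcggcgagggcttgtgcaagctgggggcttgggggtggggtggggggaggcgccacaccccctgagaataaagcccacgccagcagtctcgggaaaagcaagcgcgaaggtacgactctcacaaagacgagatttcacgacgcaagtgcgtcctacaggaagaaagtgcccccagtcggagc
The downstream Mbnl1 window was 75.0% G and C and held 4 matches to the GC box, 3 of them overlapping in 1 run. The upstream window was 39.3% G and C and held 2 matches to the NF-Y letters. It also matched the TBP letters on both strands, with overlapping matches beginning at -122 and -120 from the annotated start. These are matches of letters alone, and their use was not tested. The Mbnl3 window, at 59.0% G and C, held none of these letters, which says nothing about the factors that may act there. A GC box occurred in 35.7% of all 32851 promoters of this length, an NF-Y element in 37.4% and a TBP element in 13.6%. Among the 68 promoters found for 48 of the 57 member genes the shares were 67.6%, 45.6% and 8.82%. Gene-level counts do not tell which Mbnl1 start was used.

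Rbfox2, whose protein reads the GCAUG element, was measured at 309, 315 and 322 CPM in scramble and 269.8, 269.7 and 284 CPM in shSrsf3 without the ligand, and at 314, 308 and 309.6 against 275, 271 and 265 CPM with it. The groups were apart in both conditions, with log2 fold changes of -0.20 ± 0.0333 (adjusted p = 0.000259) and -0.20 ± 0.0334 (adjusted p = 0.000277, edgeR), and in the 9 libraries the values were -0.24 and -0.21. The CELF paralogs separated by direction. Celf1 rose from 138, 129.8 and 129 CPM to 142, 146 and 147 CPM without the ligand (log2 fold change 0.14 ± 0.0373, adjusted p = 0.00843, edgeR) and from 133, 131 and 136 to 145, 142 and 149 CPM with it (0.12 ± 0.0374, adjusted p = 0.0165). Celf2 fell from 111, 109 and 99.9 CPM to 92.0, 96.4 and 93.2 CPM (-0.18 ± 0.0443, adjusted p = 0.00438, edgeR), and from 106, 109 and 111 to 96.7, 93.3 and 91.1 CPM with the ligand (-0.21 ± 0.0444, adjusted p = 0.0017). In the 9 libraries Celf2 without the ligand was not called (-0.09, adjusted p = 0.17), while Celf1 was called in both conditions (0.17 and 0.11).

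**Figure D3:**
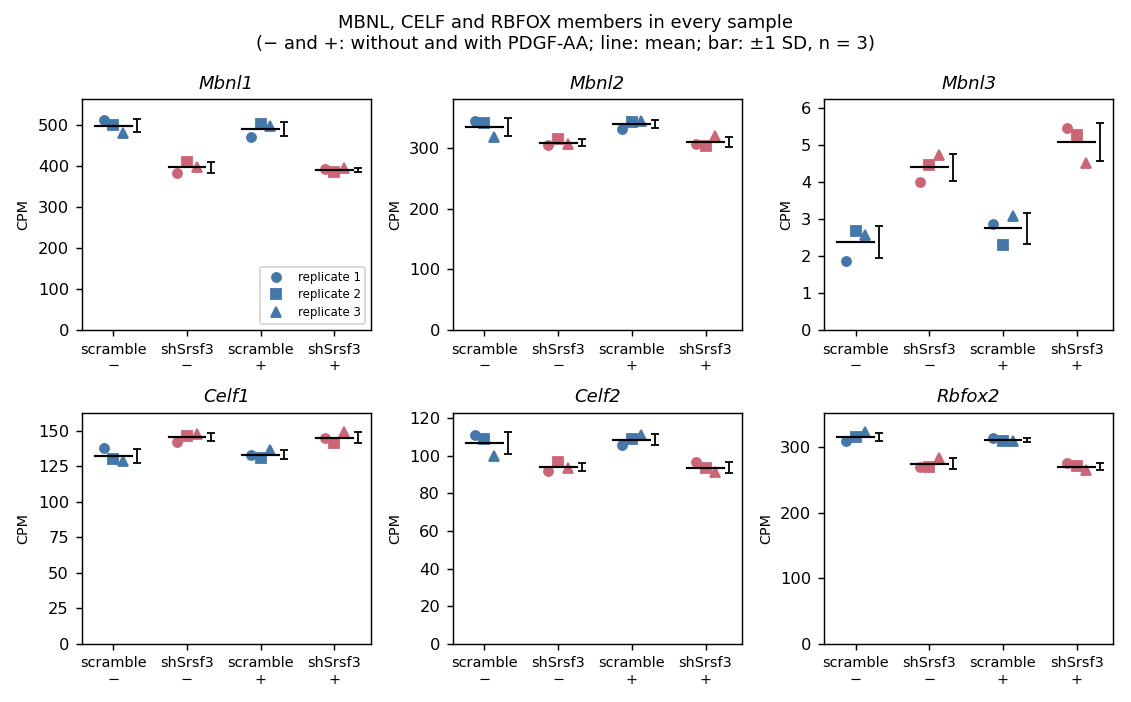
CPM of 6 members in each of the 12 samples, by group without (-) and with (+) PDGF-AA, with replicates as symbols, the mean as a line and 1 SD as a bar (n = 3), on axes from 0. Mbnl1, Mbnl2, Celf2 and Rbfox2 are lower in shSrsf3 and Mbnl3 and Celf1 higher, and scramble and shSrsf3 samples of the same ligand condition do not overlap in any panel.

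Among the 5 hnRNP L and PTB members, 3 were called lower without the ligand and 5 of 5 with it, none higher. Of all genes tested 23.7% and 20.7% were called lower. These proteins bind CA-rich or pyrimidine-rich RNA and mostly repress exons. Ptbp1, the main form of PTB outside neurons, fell from 434, 419 and 412 CPM to 389.6, 387 and 386 CPM (-0.12 ± 0.0324, adjusted p = 0.00728, edgeR) and from 441, 427 and 442 CPM to 385, 381 and 399 CPM with the ligand (-0.17 ± 0.0324, adjusted p = 0.000871). Ptbp3 fell by 0.17 and by 0.19 on the log2 scale and Hnrnpll by 0.13 in both. Hnrnpl (-0.06 and -0.10) and the neuronal paralog Ptbp2 (-0.12 and -0.15) were called with the ligand alone. In the 9 libraries none of the 5 was called without the ligand and 4 were with it, all but Ptbp2.

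The 7 members of the hnRNP C, M, R/Q and U group gave 5 lower calls without the ligand and none with it, beside 23.7% and 20.7% of all genes. Hnrnpul1, an RNA-binding relative of the scaffold protein gene Hnrnpu, was at 264, 265 and 216 CPM in unstimulated scramble and at 206, 211 and 209.7 CPM in unstimulated shSrsf3 (-0.25 ± 0.0745, adjusted p = 0.0145, edgeR). Replicates 1 and 2 of scramble were well above the rest and replicate 3 lay close to the knockdown samples. With the ligand the values were 217, 257 and 222 against 213, 220.4 and 227 CPM, where the one high value again came from a library of lower mapping rate (log2 fold change -0.08 ± 0.0745, adjusted p = 0.451). Hnrnpul2 (-0.24), Hnrnpc (-0.22), Hnrnpm (-0.20) and Hnrnpu (-0.16) were the other 4 called, and Hnrnpr (-0.12) and Syncrip (-0.13) were not. In the 9 libraries none of the 7 was called, with values of -0.05 (Hnrnpul1), -0.13 (Hnrnpul2), -0.07 (Hnrnpc), -0.05 (Hnrnpm) and 0.00 (Hnrnpu).

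Of the 7 members of the hnRNP A/B and D group, Hnrnpa0 was called higher and Hnrnpa2b1 lower without the ligand, and none was called with it. Hnrnpa0 stood at 271, 269.8 and 276 CPM in scramble and 298, 306 and 304 CPM in shSrsf3 (0.15 ± 0.0294, adjusted p = 0.000863, edgeR), and at 283, 285 and 278 against 297, 297 and 295 CPM with the ligand (0.07 ± 0.0294, adjusted p = 0.0693), with no overlap in either condition. Hnrnpa2b1 stood at 693, 688 and 647 CPM against 611, 619 and 631 CPM without the ligand (-0.12 ± 0.038, adjusted p = 0.017, edgeR), and its call was lost in the 9 libraries (-0.06, adjusted p = 0.279). Hnrnpa3 and Hnrnpdl, not called with 12 libraries (0.04 and -0.04), were called higher with 9 (0.21 and 0.15). In the hnRNP F and H group, whose proteins bind G-rich runs, Hnrnph2 was called lower without the ligand (-0.13) and Hnrnpf with it (-0.12). The Hnrnph2 call was lost with the 9 libraries (-0.03, adjusted p = 0.699) and that of Hnrnpf was not (-0.12, adjusted p = 0.00654). Hnrnph3 measured 32.7, 34.0 and 23.8 CPM in unstimulated scramble against 31.1, 30.4 and 30.6 CPM in shSrsf3, so that the groups overlapped and the log2 fold change was 0.03 ± 0.103 (adjusted p = 0.812). With the 9 libraries it was 0.37 (adjusted p = 0.000322) without and 0.31 (adjusted p = 0.000171) with the ligand, the widest shift between the library sets among the members.

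Among the poly(C)-binding and KH-domain members, Qki and Pcbp2 were called higher and Hnrnpk lower in both conditions, and Khdrbs3 was called lower with the ligand. Qki, which encodes the quaking protein, rose from 174, 165 and 160.0 CPM to 180.5, 188 and 185 CPM (0.15 ± 0.0404, adjusted p = 0.00791, edgeR) and from 159.5, 162 and 167 CPM to 184, 176 and 189 CPM with the ligand (0.17 ± 0.0405, adjusted p = 0.00424). The groups did not overlap, and with 9 libraries the values were 0.20 and 0.16. Pcbp2 rose by 0.15 and 0.10 on the log2 scale, with neither value called in the 9 libraries, and Hnrnpk fell by 0.09 in both, with the call without the ligand lost in the 9 libraries (-0.07, adjusted p = 0.14). Khdrbs3, a STAR-family relative of Sam68 at about 20 CPM, stood at 23.3, 20.0 and 21.7 CPM in scramble and 17.7, 20.3 and 18.6 CPM in shSrsf3 with the ligand (-0.20 ± 0.063, adjusted p = 0.0189, edgeR), where the groups overlapped, and at -0.15 (adjusted p = 0.0656) without it. Pcbp1 and Khdrbs1 were called in neither condition.

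The kinases that phosphorylate SR proteins did not move as 1 group. Srpk1 (chr17:28806622-28841683, GRCm39), a mainly cytoplasmic kinase that readies SR proteins for nuclear import, stood at 104, 99.0 and 100.5 CPM in scramble and at 118, 118 and 119 CPM in shSrsf3 without the ligand. With it the values were 106, 102 and 104 against 116, 119 and 124 CPM. The groups were apart in both conditions, with log2 fold changes of 0.22 ± 0.0365 (adjusted p = 0.000224) and 0.21 ± 0.0365 (adjusted p = 0.000467, edgeR), and with 9 libraries it was 0.23 and 0.19. Its paralog Srpk2 was not called (0.05 and 0.09). Of the nuclear CLK kinases, Clk3 stood at 79.4, 77.9 and 67.7 CPM against 62.0, 62.7 and 62.3 CPM without the ligand (-0.27 ± 0.0645, adjusted p = 0.00427, edgeR) and at 70.3, 77.9 and 69.0 against 61.3, 67.7 and 60.7 CPM with it (-0.20 ± 0.065, adjusted p = 0.0274). In the 9 libraries the first of these was -0.12 (adjusted p = 0.121). Clk1 stood at 104, 108 and 109.8 against 97.7, 93.4 and 95.5 CPM without the ligand (-0.16 ± 0.0366, adjusted p = 0.00246, edgeR), and was called there in the 9 libraries too (-0.21). Clk2 (-0.15) was called without the ligand alone and not in the 9 libraries, and Clk4 (0.09 and -0.02) was called in neither condition.

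Among the Tra2 and RBM members, Rbm10, an exon repressor, was lower in both conditions at 58.4, 57.7 and 54.8 against 51.3, 50.0 and 49.3 CPM (-0.18 ± 0.0365, adjusted p = 0.00121, edgeR) and at -0.14 with the ligand. Rbm25, a partner of the U1 snRNP, stood at 229, 231 and 182 CPM in unstimulated scramble against 171, 167 and 180.2 CPM in shSrsf3 (-0.31 ± 0.0792, adjusted p = 0.00591, edgeR), the second largest decrease among the members. Its highest knockdown sample lay just below scramble replicate 3, with the ligand the difference was -0.11 (adjusted p = 0.291), and with 9 libraries without the ligand it was -0.08 (adjusted p = 0.27). Tra2b was called without the ligand alone (-0.11), but with the 9 libraries it was called with the ligand (-0.10, adjusted p = 0.0327) and not without it (-0.03, adjusted p = 0.688). Tra2a, Rbm5 and Rbm39 were called in neither condition. Tia1 was called lower in both (-0.13 and -0.14), and Tial1 and Elavl1 in neither. The Tia1 call without the ligand was lost with the 9 libraries (-0.06, adjusted p = 0.417), and the one with it was not (-0.14, adjusted p = 0.024). Of the paraspeckle and matrin members, Nono was called lower without the ligand (-0.18) and Sfpq and Matr3 in neither, and the Nono call was lost with the 9 libraries (-0.07, adjusted p = 0.22). The 4 members that recognise the 3' splice site, U2af1, U2af2, Sf1 and Sf3b1, gave no call in either condition, with log2 fold changes from -0.09 to 0.02. With the 9 libraries Sf3b1, whose protein contacts the branch point, was called lower with the ligand (-0.13, adjusted p = 0.00373).

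**Figure D4:**
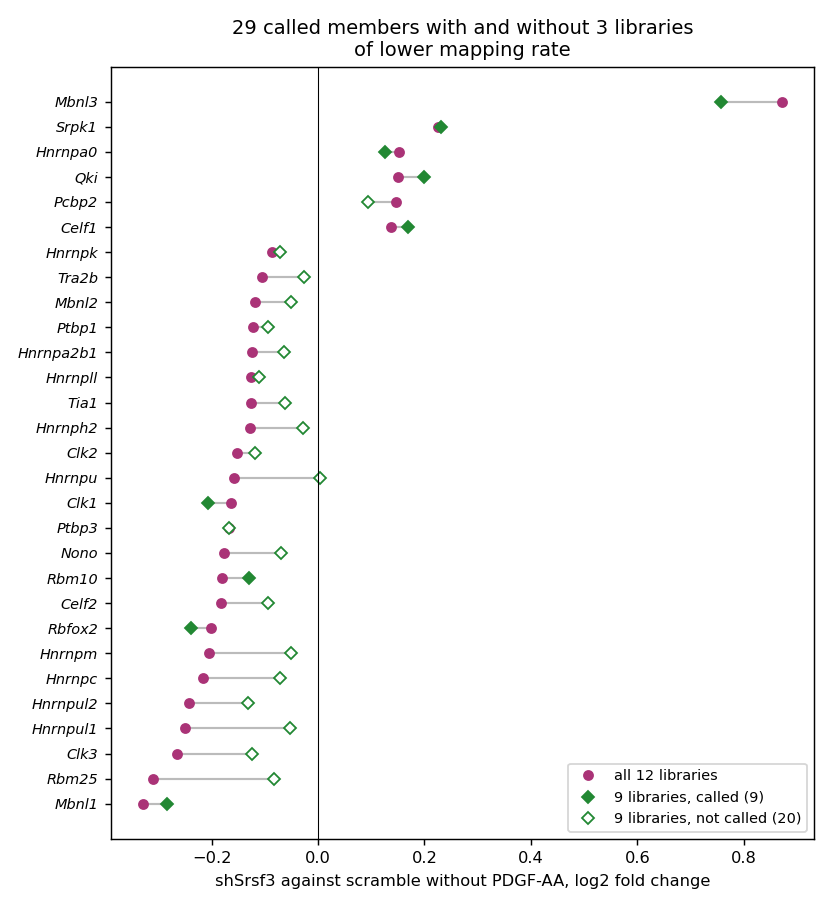
Log2 fold change of shSrsf3 against scramble without PDGF-AA for the 29 called members, with all 12 libraries (circles) and with the 9 libraries left after removal of those with a lower mapping rate (diamonds, filled where called). The 9 members called with both sets include Mbnl1, Rbfox2, Srpk1 and Mbnl3, while Rbm25, Hnrnpul1, Hnrnpc, Hnrnpm and Hnrnpu lie closer to 0 with 9 libraries.

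One hour of PDGF-AA left the splicing regulators nearly where they were. In scramble cells 1 of 57 members was called, Rbm5, beside 4.04% of all genes tested (2.04% lower), and log2 fold changes ran from -0.24 to 0.20. Samples did not overlap for 4 members higher and 3 lower, beside 8.92% and 9.84% of all genes. Rbm5 (chr9:107617570-107648224, GRCm39), a splicing regulator known for its control of apoptosis genes, stood at 113, 121 and 125 CPM in unstimulated scramble and at 101, 102 and 102 CPM after the ligand. In shSrsf3 cells it stood at 120.2, 108 and 116 CPM and then at 98.2, 103 and 98.3 CPM. Every stimulated sample was below every unstimulated sample of the same line, with log2 fold changes of -0.24 ± 0.0473 (adjusted p = 0.0127, edgeR) and -0.20 ± 0.0476 (adjusted p = 0.0991). With 9 libraries both were called (-0.30, adjusted p = 0.0169, and -0.20, adjusted p = 0.0352). The call in scramble was lost without unstimulated scramble replicate 2 (-0.23, adjusted p = 0.0579, edgeR) and without stimulated scramble replicate 1 (-0.23, adjusted p = 0.0544) or 3 (-0.24, adjusted p = 0.0576). Leaving out unstimulated scramble replicate 3 gave 7 called members, in a fit that called 706 higher and 766 lower of 15017 genes.

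In scramble cells 6 members had an unadjusted p under 0.05 in edgeR: Rbm5, Clk1 (-0.12), Clk2 (-0.16) and Hnrnpa2b1 (-0.09) lower and Sf3b1 (0.12) and U2af1 (0.09) higher. Of all 15037 genes tested 2643 had such a p. In shSrsf3 cells 0 of 57 members were called by edgeR, beside 0.565% of all genes tested. An unadjusted p under 0.05 in edgeR was found for 1 member (Rbm5), beside 1420 of 15037 genes. DESeq2 called 1 member, and over all genes 156 higher and 50 lower of 13449. Samples of shSrsf3 did not overlap between conditions for 9 members higher and 3 lower, beside 8.59% and 9.42% of all genes.

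The interaction, which tests whether the ligand response differs between the lines, gave 0 calls among the members with edgeR and with DESeq2, beside 0.0133% of all genes tested with edgeR. At an unadjusted p under 0.05 there was 1 member, Clk1, beside 833 of all 15037 genes tested. Its interaction was 0.11 ± 0.0518 on the log2 scale (adjusted p = 0.874, edgeR). Clk1 fell after the ligand from 104, 108 and 109.8 to 95.6, 98.3 and 101 CPM in scramble without passing the test (adjusted p = 0.0806), and measured 97.7, 93.4 and 95.5 and then 93.7, 95.7 and 94.8 CPM in shSrsf3. Next were Hnrnpa0 (-0.08 ± 0.0416) and Rbm25 (0.20 ± 0.112), both with an adjusted p of 0.874. These tests do not show that the members responded alike in the lines.

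**Figure D5:**
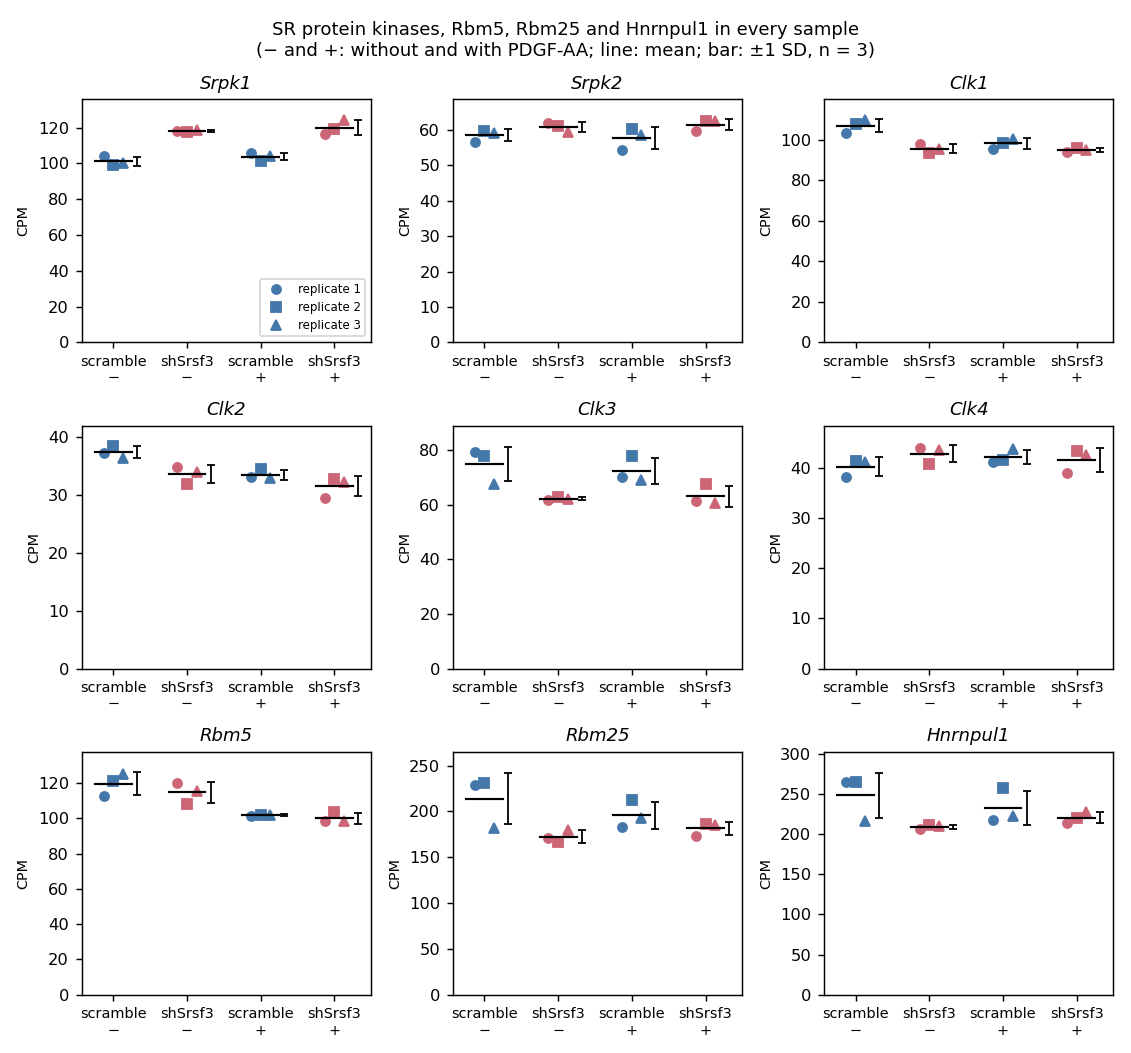
CPM of the 6 SR protein kinase genes, Rbm5, Rbm25 and Hnrnpul1 in each of the 12 samples, by group without (-) and with (+) PDGF-AA, with the mean as a line and 1 SD as a bar (n = 3), on axes from 0. Srpk1 is higher in all shSrsf3 samples, Rbm5 is lower in all stimulated samples, and unstimulated scramble replicates 1 and 2 stand high for Rbm25 and Hnrnpul1.

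Other splicing genes were counted by list, to be read beside the 45.9% and 41% of all genes called without and with the ligand. Of 13 SR protein genes, Srsf3 included, 3 were called higher and 3 lower without the ligand and 1 higher (Srsf4) and 1 lower (Srsf3) with it, which is 46.2% and 15.4% of the list. The largest increases without the ligand were those of Srsf4 (0.17) and Srsf7 (0.17). After PDGF-AA in scramble cells 2 SR genes were called (15.4%, beside 4.04% of all genes), both higher, Srsf7 (0.26 ± 0.0535, adjusted p = 0.0131, edgeR) and Srsf6 (0.20 ± 0.048, adjusted p = 0.0314). Of 33 genes of the snRNP core, 3 were called higher and 8 lower without the ligand, and 1 higher and 9 lower with it (33.3% and 30.3%, both below all genes), led downward by Sf3b6 (-0.25 and -0.20) and Sf3b3 (-0.23 and -0.29), both subunits of the SF3B complex. Of 39 other splicing regulators 37 were tested, with 1 higher and 8 lower without the ligand and 2 higher and 7 lower with it, 24.3% in each condition. Rbmx, the X-linked hnRNP G gene, and Taf15, a FET-family gene, fell most (log2 fold changes of -0.47 and -0.44 for Rbmx, -0.41 and -0.31 for Taf15), and Pcbp4 was higher in both (0.29 and 0.23).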

How the data were processed

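RNA of all 12 samples was isolated together, and stranded poly(A) libraries were sequenced as paired ends. The authors trimmed reads with BBDuk, quantified transcripts with Salmon 1.4.0 against GENCODE M26 (GRCm39) and summed them per gene with tximport, whose scaling option is not given in the sources used here. They deposited expected counts, of which 16.3% are not whole. The counts were rounded, filtered with filterByExpr (minimum count 10), scaled by TMM and fitted with edgeR 4.0.16 (quasi-likelihood test, R 4.3.3) over 4 groups, leaving 15037 genes, and p-values were adjusted by Benjamini-Hochberg over all of them. Values are relative to the whole library, and counting error weighs most on low genes such as Mbnl3. Calls used a limit of 0.05. The study also asked for a 2-fold change, used here as an alternative. Transcript lengths and shared 31-base stretches came from GENCODE M39 (GRCm39). The procedure was tested on simulated data. Members, role groups and lists were chosen with earlier results of these data known. Full values are given for the 4 largest called changes per direction and comparison, the 3 lowest interaction p-values, the highest member per role group and paralogs called in opposite directions, and each other list names at most 2 genes per direction. Alternatives were DESeq2 1.42.0, limma-voom 3.58.1, other scalings and filters, equal depth, single group pairs, a replicate block, leaving out each sample and leaving out 3 libraries of lower mapping rate.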

Additional observations from a re-analysis of the deposited data

How the results depend on the processing

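Between the alternatives 15 members changed sign for knockdown without PDGF-AA, of which Hnrnpu alone was called (-0.16, and 0.00 with the 9 libraries), and 12 changed sign for knockdown with it, none of them called by edgeR in the reported fit. Asking for a 2-fold change gave 0 called members in both knockdown comparisons and in the PDGF-AA comparison of scramble cells. Of all 15037 genes tested 864, 815 and 30 passed in these comparisons. With the 9 libraries, the median log2 fold change of the members was -0.02 for knockdown without PDGF-AA and -0.05 with it. For PDGF-AA in scramble cells Hnrnpdl was at 0.22 with the 9 libraries and at 0.05 with all 12. Syncrip was at 0.20 and Rbm5 at -0.30 with the 9 libraries, so these values depend on the library set. In shSrsf3 cells Rbm5 was at -0.20. DESeq2 gave 2 and 1 calls in the PDGF-AA comparisons, the fit without a low-count filter also gave 2 and 1, and fitting only the groups compared gave 0 in scramble cells. Over all genes DESeq2 called 483 higher and 360 lower of 13449 in scramble cells, and 156 and 50 in shSrsf3 cells. Without the filter 638 and 651 of 27138 were called, and 232 and 142. With only the groups compared 154 and 93 of 14684 were called in scramble cells. Leaving out 1 sample gave 18 to 38 called members for knockdown without PDGF-AA, 12 to 28 for knockdown with it, 0 to 7 and 0 to 1 for PDGF-AA in scramble and shSrsf3 cells, and 0 to 0 for the interaction. Over all genes the calls moved too. They ran from 2854 higher and 2984 lower of 15020 to 3584 and 3618 of 15017 without PDGF-AA. With it the range was 2677 and 2568 of 15610 to 3321 and 3357 of 15017. For PDGF-AA in scramble cells it was 146 and 97 of 15035 to 706 and 766 of 15017. In shSrsf3 cells it was 20 and 3 of 15035 to 112 and 56 of 15017. Srsf3 ranged from -0.36 to -0.31 and from -0.45 to -0.40 on the log2 scale. The cause of these shifts was not tested. Replicate numbers did not pair the samples: deviations of same-numbered samples correlated from -0.142 to 0.201 in 18 pairs, 2 of them over 0.1, and only 6 samples were closest to a sample of their own number. With the replicate block 29, 20, 1, 0 and 0 members were called, as without it. Over all 15037 genes the block gave 3376 higher and 3606 lower for knockdown without PDGF-AA and 3091 and 3132 with it. Having 3 samples per group limits the detection of small differences, and the lowest member, Mbnl3, rested on 72 counts in its shallowest sample.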

Other observations

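Tissue-restricted splicing regulators, which are mostly known from neurons, muscle and epithelia, were mostly near 0: 9 of 19 passed the filter on low counts. Celf4, a CELF paralog of the brain, ranged from 8.55 to 14.7 CPM and was lower in shSrsf3 without the ligand (log2 fold change -0.55 ± 0.0881, adjusted p = 0.000192, edgeR's quasi-likelihood test) and with it (-0.44 ± 0.0915, adjusted p = 0.00174). Srrm4, the activator of neuronal microexons, ranged from 5.49 to 10.7 CPM and was higher (0.68 ± 0.0894, adjusted p = 3.67e-05, and 0.79 ± 0.0914, adjusted p = 1.26e-05). Nova2, at 0.225 to 0.961 CPM, was lower in both (-1.44 ± 0.265, adjusted p = 0.000605, and -1.26 ± 0.295, adjusted p = 0.00368). In all, 1 of these genes was called higher and 3 lower without the ligand, and 1 higher and 4 lower with it, which is 44.4% and 55.6% of the 9 beside 45.9% and 41% of all genes tested. After PDGF-AA none of the 9 was called in scramble cells by edgeR.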
